A study of Mus musculus with 10 samples.

Results

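N6-methyladenosine (m6A) enrichment was followed window by window along 5977 long outer exons of mouse embryonic stem cell transcripts. An outer exon is exon 1 or the highest-numbered exon of a gene with at least 2 exons. Of these 2 exons the one with more windows was taken where it held at least 20 windows and the gene had a mean input RPKM of at least 1 over both wild-type inputs. Long intergenic RNAs of one named catalogue were left out. The rule kept 5977 of 10488 such genes (57.0%), and their exons held 284989 of the 1510223 windows in the files (18.9%). In the other genes the longer outer exon had fewer than 20 windows (4508 genes) or both outer exons were equally long (3 genes). The exons held 20 to 285 windows, with a median of 39 and quartiles of 28 and 59. A window covered a median of 49.3 bases, as judged from 2170 single-exon genes with a length in RefSeq (GRCm38.p6), so that 20 windows correspond to about 985 bases.

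All cells were the embryonic stem cell line J-1, grown without feeder cells, and RNA fragments were precipitated with an antibody against m6A (IP) beside an unprecipitated input. The 5 pairs of IP and input libraries were a first pair with no genotype stated, 2 pairs labelled mettl3 WT and 2 pairs labelled mettl3 KO. The labels do not give the allele, the deleted part of the gene, or whether replicates or KO pairs came from separate cultures or clones. The p-values per exon below therefore reflect no more than how far the libraries of a genotype differ, and that difference may be technical. The mean input coverage of Mettl3, over 47 windows in 11 exons, was 12.9 in the first pair, 4.79 and 4.67 in the WT pairs and 3.14 and 3.38 in the KO pairs. Both KO inputs were below both WT inputs, but all 11 exons kept signal in KO, and with the deleted part unknown this does not check the genotype. How much of the KO winscores comes from m6A and how much from RNA bound by the antibody without it was not tested. All 8 embryonic stem cell markers had a mean input RPKM of at least 1 in the WT inputs (62.7 to 1833). Of the markers of other cell types, 2 of 7 fibroblast, 3 of 5 neural, 0 of 4 endoderm, 1 of 4 mesoderm and 0 of 3 trophectoderm markers did. In these bulk libraries fewer cells of a type and less RNA per cell cannot be told apart.

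The methyl group of m6A is placed on nascent RNA by a complex of Mettl3 and Mettl14 with Wtap and further subunits, and is read by proteins such as the Ythdf family, which shorten the life of the transcript. In mammalian messenger RNA the mark is known to be concentrated near stop codons, at the start of the 3′ UTR and in long internal exons, and to be sparse close to splice junctions. Last exons usually hold the stop codon and most of the 3′ UTR, and in embryonic stem cells many transcripts of pluripotency regulators carry m6A.

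The exons are numbered by genome position, so either outer exon can be the last exon of the transcript. Exon 1 was the longer one in 2942 genes and the highest-numbered exon in 3035. A strand was found in RefSeq for 4665 of the genes, and in 4586 of them (98.3%) the exon taken was the last exon of the transcript. In the other 79 it was the first exon. The opposite outer exon of the same gene had a median of only 5 windows, and 155 genes had at least 20 there as well. The median gene had 57.0% of its windows in the exon taken. Windows were therefore counted from the inner edge, the side that faces the gene's other exons and so lies at the splice junction, towards the outer edge, the end of the gene.

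Enrichment of a window is given as the winscore, the log2 of IP over input after each was divided by its median over the gene. It therefore compares a window with the rest of its own transcript and says nothing of the amount of m6A per cell. The IP libraries differed widely in depth: relative to the first IP, the WT IPs had 0.159 and 0.0712 and the KO IPs 0.0644 and 0.0606 of its depth. No IP signal was seen in 6.56% of the windows of these exons in the first pair, 14.8% and 35.2% in the WT pairs and 48.9% and 39.8% in the KO pairs. The inputs of the other pairs had 0.284 to 0.516 of the depth of the first input. The winscore adds 1 to every coverage value, which weighs more where coverage is low, so sizes are compared within a library or between WT and KO libraries, and the first pair is shown beside them.

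Enrichment rose steeply from the inner edge, was highest 5 to 6 windows into the exon and then fell towards the outer edge, in all 5 pairs. At its highest the median winscore over the 5977 exons was 1.17 in the first pair, 1.88 and 2.23 in the WT pairs, and 1.85 and 1.93 in the KO pairs. This window began and ended at about 197 to 296 bases from the inner edge. In the window at the edge itself the median was 0.26 in the first pair, 0.33 and 0.59 in the WT pairs, and 0.55 and 0.51 in the KO pairs. In exons numbered 1 this window was thinly covered, with a median input coverage of 1.26 to 1.62 and a median IP coverage of 0 in both KO libraries. In highest-numbered exons its median input coverage was 5.60 to 10.2. Their median winscore at the edge was 0.22 in the first pair, 0.40 and 0.60 in the WT pairs, and 0.22 and 0.45 in the KO pairs. Over all exons the median had dropped under 50% of its highest value by window 11 or 12. At window 20 it was 0.10 in the first pair, 0.28 and 0.33 in the WT pairs, and 0.33 and 0.35 in the KO pairs. At the maximum both KO libraries lay close to WT 1 and below WT 2, and at window 20 they lay slightly above both WT libraries.

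**Figure D1:**
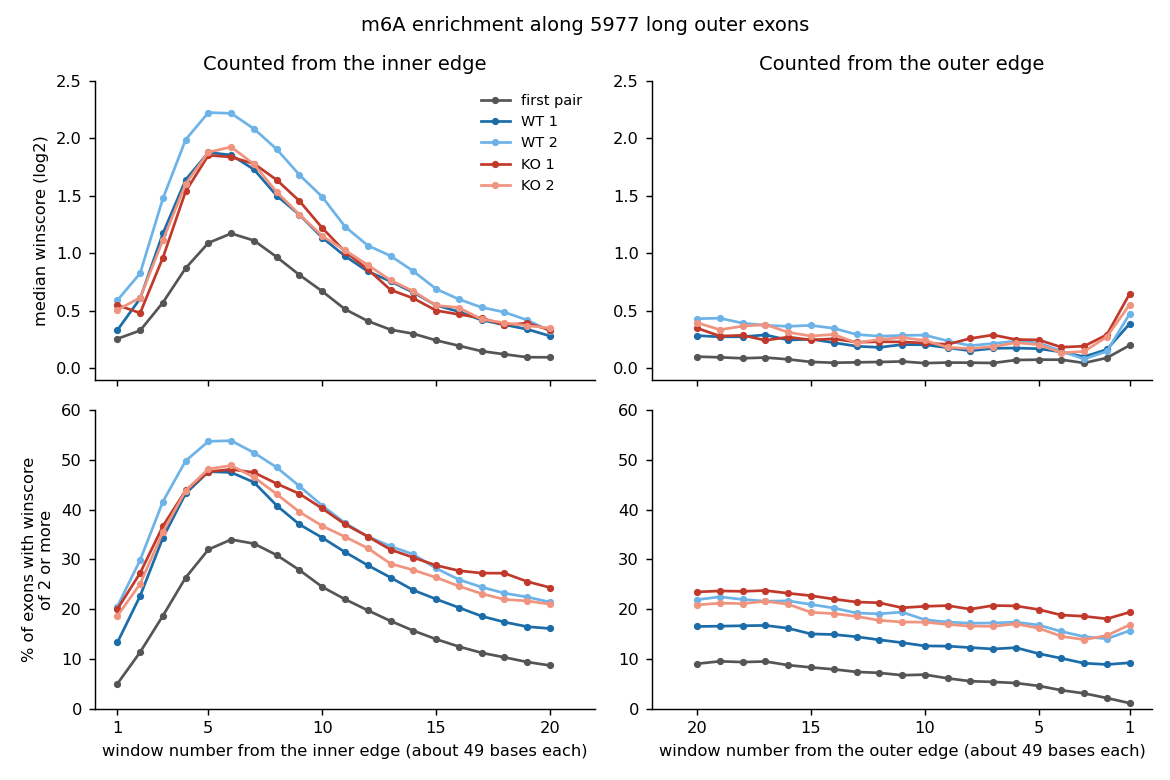
Median winscore (upper panels, log2) and percentage of exons with a winscore of at least 2 (lower panels) by window number from the inner edge (left) and from the outer edge (right), for 5977 long outer exons; each line is 1 pair of IP and input. The median was highest at window 5 or 6 from the inner edge in all 5 pairs, at 1.17 in the first pair and 1.85 to 2.23 in WT and KO, and in the outermost window it was 0.20 to 0.65.

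A winscore of at least 2 was used as the mark of an enriched window. At window 5 or 6, 34.0% of the exons reached it in the first pair, 47.6% and 53.9% in the WT pairs, and 48.1% and 48.9% in the KO pairs. At the edge window the share was 5.02% in the first pair, 13.3% and 20.5% in the WT pairs, and 20.03% and 18.7% in the KO pairs. Exons numbered 1 were thinly covered at that window. In highest-numbered exons alone its share was 7.84%, 18.5%, 25.9%, 23.7% and 22.5% in the same order. By window 20 the share over all exons was 8.70%, 16.1%, 21.4%, 24.4% and 21.01%. At window 20 the share was lowest in the first pair, the deepest IP, and next lowest in WT 1, the second deepest. It was highest in KO 1, which had the most windows without IP signal (48.9%). KO 2, the thinnest IP, lay just below WT 2. The part of depth in these shares was not tested.

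The coverage itself leaned the same way, with no value added to it. On average 42.3% of an exon's IP coverage lay in its 8 innermost windows, here called the inner zone, in the first pair, 39.8% and 40.7% in the WT pairs, and 36.4% and 38.4% in the KO pairs. These windows make up about 21.4% of the exon. The inputs also leaned inwards, with 31.9% of their coverage in the inner zone in the first pair and 25.1%, 24.5%, 24.3% and 24.7% in the others. In the 8 outermost windows, the outer zone, the IP share was 9.86%, 12.4%, 11.997%, 13.5% and 12.7%, and the input share 13.5%, 18.5%, 19.2%, 19.4% and 19.1%. In every pair the IP share was above the input share in the inner zone and below it in the outer zone.

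At the outer edge the input ran out. The median input coverage of the outermost window was 0.548 in the first pair and 1.96 to 2.18 in the others, against 8.75 and 5.95 to 6.46 at window 6 from the inner edge. The median IP coverage of the outermost window was 0 in WT 2 and in both KO libraries. Its median winscore was 0.20, 0.39, 0.47, 0.65 and 0.55 in the order first, WT 1, WT 2, KO 1 and KO 2, above that of the windows next to it. No direction is read from this window.

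The maximum lay 1 to 2 windows further in when the exon was numbered 1. In exons numbered 1 the median winscore was highest at window 7 in the first pair, 6 and 7 in the WT pairs and 7 and 6 in the KO pairs. In highest-numbered exons it was highest at window 5 in all 5 pairs. The heights were alike, at 1.92 and 2.28 in WT for exons numbered 1 and 1.93 and 2.29 for highest-numbered exons. Windows are numbered by genome position in both, so the inner edge is the end of the numbering in the former and its start in the latter. The part of this numbering in the shift was not tested.

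The rise stayed at the same distance from the junction in short and in long exons, and it was taller in the longer ones. In 2994 exons of 20 to 39 windows the highest median was 0.94 in the first pair, 1.61 and 1.93 in the WT pairs, and 1.62 and 1.63 in the KO pairs. In 2315 exons of 40 to 79 windows it was 1.38, 2.10, 2.46, 2.09 and 2.15 in the same order. In 668 exons of 80 or more windows it was 1.78, 2.53, 2.87, 2.54 and 2.83. All of these maxima fell on windows 5 to 7. Each library showed the same order of the 3 length classes, and the share of exons in which the inner zone exceeded the outer zone went up in parallel, from 69.9% to 80.2% to 86.1% in WT 1 and from 65.0% to 72.7% to 81.0% in KO 1. The longest exons came from genes of lower expression, with a median RPKM of 3.91 against 6.54 in the shortest class, and their gene median is taken mostly from the exon itself; the part of either in this order was not tested.

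**Figure D2:**
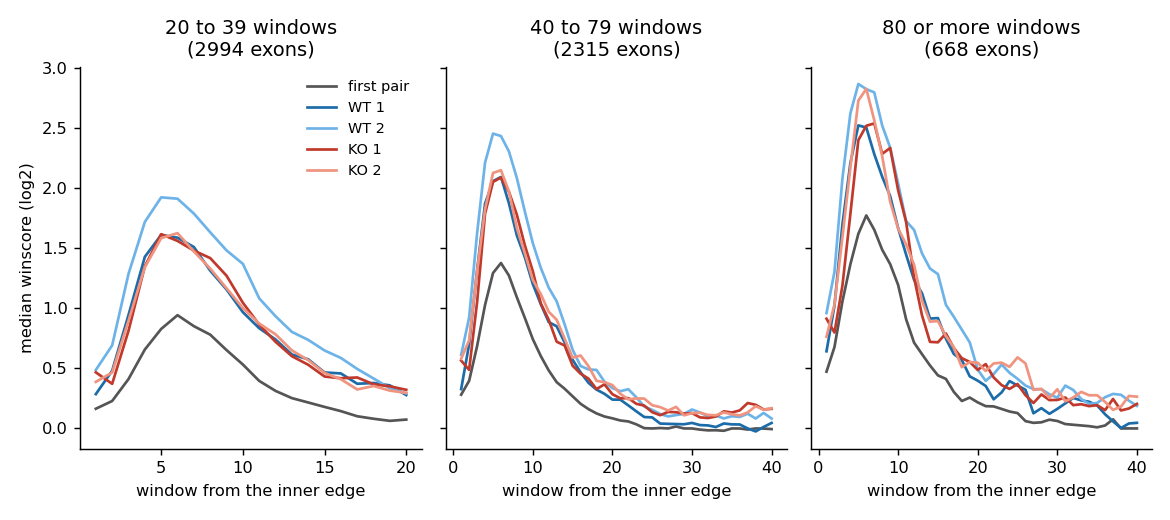
Median winscore (log2) by window number from the inner edge in exons of 20 to 39, 40 to 79 and 80 or more windows; each line is 1 pair of IP and input, and the first panel ends at window 20, the shortest exon in it. The maximum stayed at windows 5 to 7 and rose from 1.61 to 2.10 to 2.53 in WT 1.

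Longer exons also held more separate patches. A patch was a run of at least 2 neighbouring windows with a winscore of at least 2. In WT 1, 80.1% of exons of 20 to 39 windows had a patch and 35.7% had 2 or more, against 96.3% and 76.6% of exons of 80 or more windows. In KO 2 the corresponding values were 86.0% and 49.4% against 98.1% and 93.9%. Longer exons have more windows in which a patch can lie, and the part of this was not tested. The share of all windows with a winscore of at least 2 went the other way in all 5 pairs. Between the same 2 length classes it fell from 21.8% to 14.0% in WT 1 and from 25.1% to 19.5% in KO 2. The median patch was 3 to 5 windows long in every length class and pair. Neighbouring windows can share sequenced fragments, so windows of a patch are not independent.

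When the genes were split by RPKM into 4 classes of equal size, the slope was present in each class and lowest in the least expressed. The median difference of inner and outer zone was 0.87 and 0.99 in the WT pairs and 0.64 and 0.90 in the KO pairs in the lowest class (median RPKM of 1.75). In the highest class (median RPKM of 21.7) it was 1.25 and 1.60 in the WT pairs and 1.16 and 1.15 in the KO pairs. The slope was steepest in the third class (median RPKM of 7.98), at 1.43 and 1.71 in WT, so it did not rise steadily with expression. The median highest window lay 12 windows into the exon in both WT libraries in the lowest class and 7 and 8 windows in the highest. Exons had a median of 42 windows in the lowest class and 35 in the highest. The added 1 also weighs more at low coverage. The part of either in these differences was not tested.

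To compare the ends exon by exon, the mean winscore of the inner zone and that of the outer zone were taken in each library. The median inner zone was 0.86 in the first pair, 1.41 and 1.66 in the WT pairs, and 1.42 and 1.37 in the KO pairs. The windows between the zones had medians of 0.22, 0.44, 0.58, 0.70 and 0.54, and the outer zone 0.09, 0.22, 0.28, 0.42 and 0.30. In all 5 pairs the inner zone was thus highest and the outer zone lowest. The inner zone exceeded the outer zone in 74.4% of exons in the first pair, 75.7% and 76.0% in the WT pairs, and 69.8% and 72.3% in the KO pairs. In 3201 exons (53.6%) it did so in all 5 pairs, and in 619 (10.4%) the outer zone was higher in all 5. The gene median cancels in this difference.

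The difference was tested in each exon with limma over the WT and KO libraries, on the log2 of IP over input. In WT the inner zone was higher in 2936 of 5977 exons (49.1%) and the outer zone in 443 (7.41%) at an adjusted p under 0.05. In KO these numbers were 2584 (43.2%) and 522 (8.73%). Over all 6214 outer exons fitted, which include these, the percentages called were 48.3 inside and 7.32 outside in WT (55.6 in either direction), and 42.4 and 8.64 in KO (51 in either direction). The median difference was 1.27 in WT and 1.01 in KO. Of the exons called higher inside in WT, 2297 were also called so in KO, which is 78.2% of the WT calls and 88.9% of the KO calls, and 318 were called higher outside in both. WT and KO were fitted together and share the estimate of spread. A zone of 4 windows lowered the inner calls to 1780 in WT and 1487 in KO. Without WT replicate 1 the WT calls were 1627, and without WT replicate 2 they were 1024.

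Exons with a steep slope in 1 pair tended to have one in the others. Across the 5977 exons the Pearson correlation of the difference of zones was 0.905 between the WT libraries, 0.786 between the KO libraries and 0.797 to 0.854 between a WT and a KO library. With the first pair it was 0.735 to 0.845. The exons share library, depth and gene annotation, so these values are a description. The lowest correlation outside the first pair was between the KO libraries, whose IP coverage was the thinnest.

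No exon was called different in its slope between KO and WT (0 of 5977; percentage called over all exons fitted: 0). The lowest adjusted p by limma was 0.661, and 442 exons had an unadjusted p below 0.05 (127 with a steeper and 315 with a flatter slope in KO). The estimated difference was lower in KO in 3627 of the exons (60.7%), with a median of -0.22. Without KO replicate 2 the fit called 38 exons, 12 higher and 26 lower in KO, with the remaining KO library assumed to vary like the WT libraries. The median inner zone of both KO libraries (1.42 and 1.37) lay within or just below the range of the WT libraries (1.41 and 1.66), and the outer zone of both (0.42 and 0.30) above it (0.22 and 0.28). With 2 libraries against 2 the smallest two-sided p of an exact permutation test is 0.333, so none is given for these medians. KO libraries had more windows without IP signal (39.8% and 48.9% against 14.8% and 35.2% in WT), and the part of this in the lower slope was not tested.

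**Figure D3:**
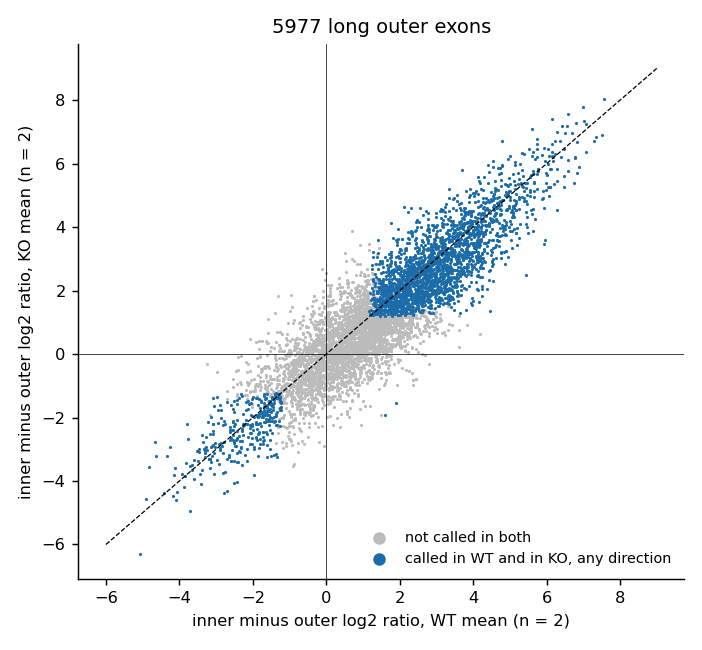
Inner minus outer zone difference of log2 IP over input per exon, WT mean against KO mean (2 libraries each), for 5977 long outer exons; blue points were called by limma in both genotypes and the dashed line marks equal values. The points follow the line, with 2297 exons called higher at the inner zone and 318 at the outer zone in both.

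The mean winscore over the whole exon gave no call between KO and WT either. Among the 5977 exons 0 passed limma (percentage called over all 48517 exons of 4 or more windows: 0; lowest adjusted p among the long outer exons 0.721), and 52 (0.870%) had an unadjusted p below 0.05, 32 higher and 20 lower in KO. Over all exons fitted, 6.90% had such a p. The 0.870% is lower than a threshold of 0.05 would give with no change at all, so the fit was strict for the long outer exons. Its estimate of spread draws on all exons fitted, short ones included, and the part of this was not tested. The lower share therefore does not show that long outer exons changed less. The median change of KO minus WT was 0.04 in the long outer exons and 0.14 over all exons. On the log2 ratio of mean coverages, centred per library, the median in the long outer exons was -0.17, so the direction of this small shift depends on the measure. It also turned without KO replicate 1 (-0.028) and without WT replicate 1 (-0.020).

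The strongest inner zones belonged to transcripts of diverse function. The next 10 were chosen for the highest WT inner zones among genes with an RPKM of at least 10, so their WT values are a description. Pias2, a SUMO ligase, had inner zone winscores of 4.88 in the first pair, 6.68 and 7.67 in the WT pairs, and 7.99 and 7.66 in the KO pairs, beside outer zone values of 0.27, 0.12, -0.75, 0.68 and 1.18. Here KO 1 lay above both WT values and KO 2 beside the higher of them. Wdr26, a subunit of the CTLH ubiquitin ligase, had 4.91, 6.33, 7.45, 8.13 and 7.02 in the inner zone and -1.10 to 0.36 in the outer zone, and its highest window was the fifth in 4 pairs and window 4 in KO 1. Suz12, a core subunit of Polycomb repressive complex 2, had 4.64, 6.34, 7.03, 6.09 and 6.38 against -1.08 to 0.03. Its highest window was window 7 in all 5 pairs, with an IP coverage of 4229 over an input coverage of 58.6 in the first pair, 2662 over 54.5 and 2715 over 52.4 in WT, and 1588 over 48.0 and 1821 over 50.2 in KO. The median IP coverage over its exon was 7.58 to 17.3.

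Arl5a, a small GTPase of the ARF family, had 5.34 in the first pair, 6.55 and 7.54 in the WT pairs, and 7.07 and 6.76 in the KO pairs. Sec62, which helps move proteins into the endoplasmic reticulum, had 4.72, 6.18, 7.41, 8.03 and 7.28 in the same order. Impad1, a Golgi phosphatase, had 4.28, 5.93, 7.62, 5.90 and 6.06. In these 3 the KO values lay within or above the WT range, apart from KO 1 of Impad1 just below it. Ppp4r2, a regulatory subunit of protein phosphatase 4, had 6.25 and 6.41 in WT and lower values of 4.95 and 5.30 in KO, with no overlap, yet its difference of zones did not pass the test between genotypes (limma adjusted p = 0.896).

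Ireb2, the iron-regulatory RNA-binding protein 2, and Cops2, a subunit of the COP9 signalosome, were high at both ends. Ireb2 had WT inner zones of 6.51 and 7.43 and outer zones of 2.61 and 2.47, and KO inner zones of 7.45 and 6.90 and outer zones of 3.34 and 1.97. In Cops2 the WT inner zones were 5.04 and 7.39 and the outer zones 2.75 and 3.49. Rian, an imprinted non-coding RNA of the Dlk1-Dio3 region, was the only non-coding gene of the 10, with inner zones of 5.89 and 6.50 in the WT pairs and 7.57 and 5.26 in the KO pairs; at 20 windows its 2 zones take up most of the exon. In the KO libraries, whose values did not enter the choice, the inner zone was called higher in all 10, beside 43.2% of all 5977 exons. Their limma adjusted p-values were 3.46e-05 to 0.00116. Over all exons the difference of zones correlated between WT and KO libraries (r of 0.797 to 0.854). These KO calls are therefore no independent support.

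The 6 highest WT outer zones at an RPKM of at least 10 were in exons of 22 to 43 windows, and higher ones exist below that limit. Aldh18a1, an enzyme of proline synthesis, had outer zone winscores of 3.40 in the first pair, 4.83 and 5.08 in the WT pairs, and 6.19 and 4.07 in the KO pairs, against inner zones of 1.02, 1.62, 2.73, 1.34 and 0.17. Its highest window was number 17 of 22 in 4 pairs and 22 in KO 1. Mat2a makes S-adenosylmethionine, the methyl donor of m6A, and hairpins in its 3′ UTR are known substrates of Mettl16. Its outer zone had 3.74 in the first pair, 4.22 and 4.73 in the WT pairs, and 5.21 and 4.84 in the KO pairs, against inner zones of 0.84 to 2.11, and its highest window was number 26, 28, 28, 27 and 28 of 32. The KO values of Mat2a were above both WT values, but the difference of zones did not pass between genotypes (difference -0.78, SE 0.66, limma adjusted p = 0.794). Api5, an inhibitor of apoptosis, peaked at window 36 or 37 of 42 in all 5 pairs, with outer zones of 4.24 and 5.07 in the WT pairs and 4.91 and 3.94 in the KO pairs. Ppp6r3, a subunit of protein phosphatase 6, peaked at windows 38 to 40 of 43, with outer zones of 3.87 and 4.80 in the WT pairs and 4.40 and 3.63 in the KO pairs.

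Polr2a, the largest subunit of RNA polymerase II, was enriched along its whole exon of 24 windows in 4 of the pairs. Its mean winscore was 0.75 in the first pair, 3.92 and 4.55 in the WT pairs, and 5.11 and 4.81 in the KO pairs, and both zones were high. Polr2a stands for a different pattern from Aldh18a1: the outer zone did not pass against the inner zone in WT (limma adjusted p = 0.124) and passed in KO (adjusted p = 0.0287), with no call for the difference between genotypes (adjusted p = 0.895). The first pair stood apart from the other 4 here, and its genotype and its relation to the other cultures are not stated.

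**Figure D4:**
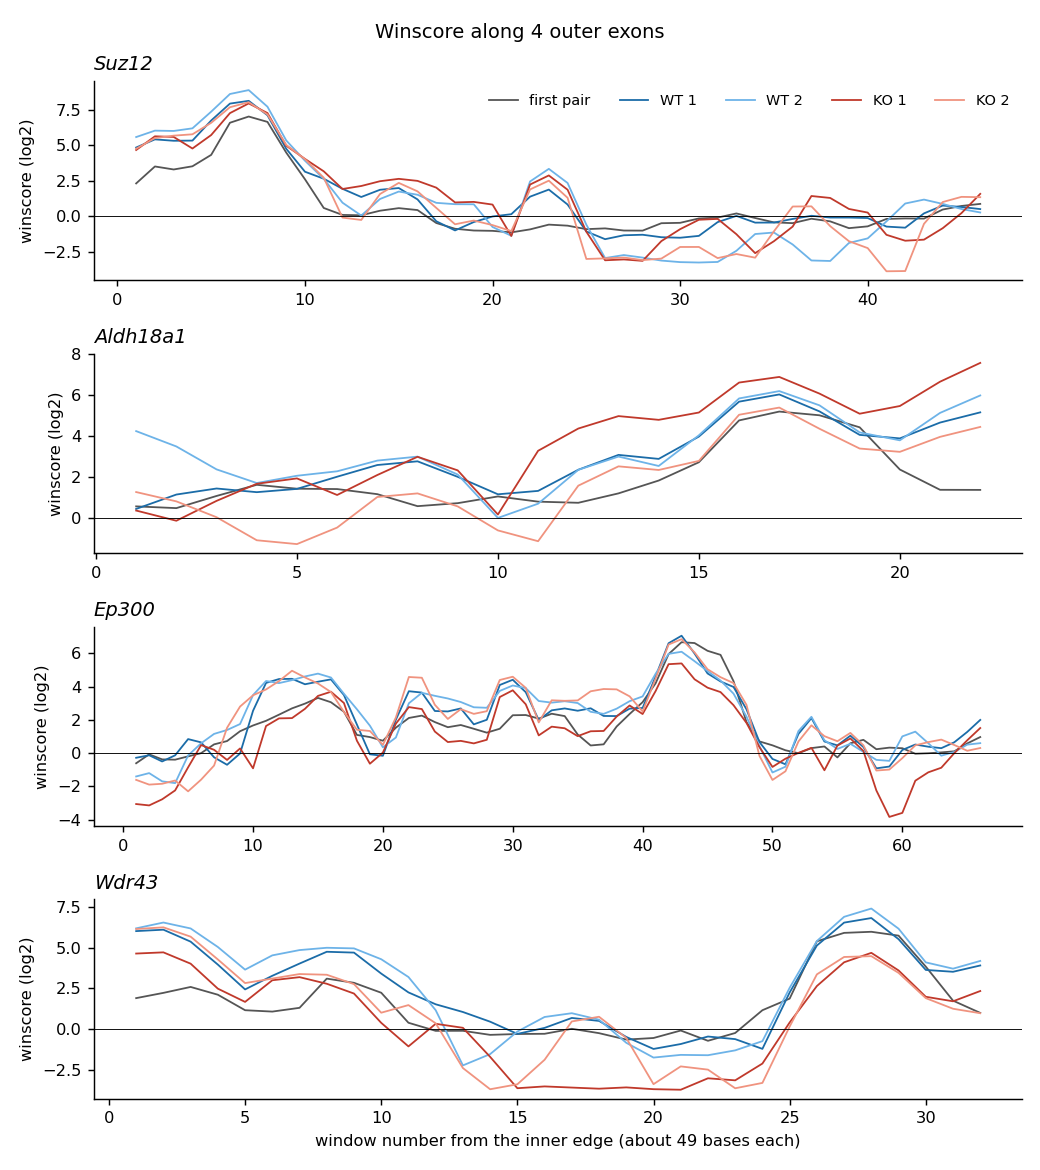
Winscore (log2) by window number from the inner edge along the outer exons of Suz12, Aldh18a1, Ep300 and Wdr43; each line is 1 pair of IP and input. The highest window lay at 7 in Suz12 and at 43 in Ep300 in all 5 pairs, and in Wdr43 at 28 in the first and WT pairs and at 2 in both KO pairs.

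Wdr43, a protein of ribosome biogenesis, had enrichment at both ends and the lowest p of any long outer exon for the whole-exon mean. That mean was 1.56 in the first pair, 2.58 and 2.70 in the WT pairs, and 0.45 and 1.09 in the KO pairs. The KO values were below the others with no overlap, by a difference of -1.87 (SE 0.47, n = 2 and 2), which did not pass (unadjusted p = 0.00786, limma adjusted p = 0.721). Its highest window was window 28, with a winscore of 5.97, 6.81 and 7.39, in the first and WT pairs. In KO it was window 2, with 4.70 and 6.24.

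The other exons with the smallest p for a lower mean in KO also did not pass. They were those of Rap1gap, Fbxo30, Pou2f3 and Gpi1. Gpi1, a glycolytic enzyme, had means of 2.44 and 2.75 in the WT pairs and 1.38 and 1.29 in the KO pairs, and 0.85 in the first pair. Fbxo30, a ubiquitin ligase subunit, had -0.18 and -0.49 in the WT pairs and -1.57 and -1.52 in the KO pairs. On the higher side stood Zscan4c, Ormdl2, Manf, Cmc2 and Hjurp. Zscan4c, a zinc finger gene of the early embryo with near-identical copies that share reads, had 0.74 and 0.41 in the WT pairs and 2.05 and 1.98 in the KO pairs. In the first pair it had 0.05. Input coverage of its exon was 5.59 and 6.98 in WT, only 1.77 and 2.28 in KO, and 0.38 in the first pair. At such low coverage the added 1 weighs more, and the part of this in its higher KO values was not tested. Manf, a secreted factor of the stressed endoplasmic reticulum, had -0.42 and -1.01 in the WT pairs and 0.46 and 0.54 in the KO pairs. In these 4 genes the WT and KO libraries did not overlap, with a limma adjusted p of 0.721 for each.

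For the slope, the exons with the smallest p did not pass either. Atl2, a GTPase that shapes the endoplasmic reticulum, led the lower side: its outer zone was 0.15 in the first pair, 0.50 and 1.21 in the WT pairs, and 4.01 and 2.46 in the KO pairs, while the inner zone stayed between 2.53 and 5.17. The difference of zones was 3.62 in WT and 0.21 in KO (difference -3.41, SE 0.67, limma adjusted p = 0.661). Taok1, a protein kinase with an exon of 184 windows, had inner zones of 3.44 and 4.55 in the WT pairs and 2.66 and 1.47 in the KO pairs. Sh3gl2 and Taf4b were also on this side. On the higher side were Arhgef18, Rngtt, St6galnac6, Ptplad1 and Glis2. Rngtt, the messenger RNA capping enzyme, had outer zones of 2.30 and 4.05 in the WT pairs and 0.15 and 0.92 in the KO pairs at inner zones of 2.85 to 4.51 in these pairs.

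Exons on both sides of the length limit are given as a description. Just inside, at 20 windows, 1110004F10Rik had WT inner zones of 1.51 and 1.05, 3110082I17Rik of -0.11 and -0.61, and Acat2 of 1.76 and 2.36. Just outside, at 19 windows, Actn1 had 1.40 and 1.53, Alg13 -0.64 and -0.39, and Ap3s1 -0.13 and 0.41. The 3 longest exons differed from each other. In Strbp, with 285 windows, the outer zone had 2.53 in the first pair, 3.58 and 2.92 in the WT pairs, and 0.62 and 2.17 in the KO pairs, and the inner zone was below 0 in all 5. Lpp, with 268 windows, and Gm608, with 242, had WT inner zones of 0.37 and 0.36 and of 1.55 and 1.29, and the highest window of Gm608 lay at 128 or 129 in the first and WT pairs.

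The single highest window gave a view of position that uses no zones. It reached a winscore of at least 2 in both WT libraries in 5335 exons (89.3%), in both KO libraries in 5453, in all 5 pairs in 3873 (64.8%) and in none in 68. Its median position was window 9 in the first pair, 9 and 10 in the WT pairs, and 11 and 10 in the KO pairs. It lay within the first 10 windows in 57.8% of exons in the first pair, 55.3% and 52.9% in the WT pairs, and 46.8% and 50.6% in the KO pairs, although these windows made up only 25.02% to 26.4% of the exon. The last 10 windows held it in 9.47%, 13.1%, 14.7%, 16.5% and 15.3%. The KO shares within the first 10 windows were below both WT shares.

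The place of this window was often the same in different libraries. In the WT libraries it lay within 2 windows of the same place in 74.5% of 5335 exons, where 5 windows are on average 12.98% of the exon. For a WT and a KO library the share was 56.1% to 67.3%, and for the KO libraries 54.997%. Each share between WT and KO was thus slightly or clearly above that between the KO libraries. For the first pair and WT 1 it was 77.7% of 3949 exons.

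Exons that passed as higher at the outer zone often had their maximum among the last windows. The exons were chosen by the WT contrast, so values are given for the first and KO pairs. The KO libraries still had a part in the choice, since the spread was estimated from WT and KO together. In the 443 exons, the median outer zone was 0.99 in the first pair and 2.08 and 1.80 in KO, against inner zones of -0.05, 0.07 and -0.06. The outer zone was higher in all but 7.90% of them in the first pair and all but 6.998% and 4.97% in KO. The maximum lay in the last 10 windows in 64.6% of them in the first pair and 54.7% and 58.05% in KO. Over all 5977 exons these shares were 9.47%, 16.5% and 15.3%. These exons had a median of 32 windows, against 44 in the 2936 exons called higher inside. In the latter the inner zone was higher in 98.0% in the first pair and 94.9% and 97.3% in KO. Over all 5977 exons it was higher in 74.4%, 69.8% and 72.3%.

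In the 79 exons that are the first exon of the transcript by strand, the slope was weaker. Their median difference of zones was 0.42 in the first pair, 0.45 and 0.30 in the WT pairs, and 0.22 and 0.11 in the KO pairs. In the 4586 last exons it was 0.81, 1.21, 1.45, 1.02 and 1.17. The inner zone was higher in 62.0% and 58.2% of the first exons and 76.5% and 76.6% of the last exons in WT. The 2 sets differ in length, with medians of 31 and 39 windows, and the difference between them was not tested. Among the last exons alone, 2316 (50.5%) were called higher inside in WT and 2034 (44.4%) in KO.

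Of 34 expressed regulators of naive pluripotency, 22 had a long outer exon, beside 57.0% of all expressed genes with at least 2 exons; the list counts here and below also include single-exon genes. In WT 13 of the 22 were called higher inside and 2 outside, beside 49.1% and 7.41% of all 5977 exons. In KO 12 and 2 were called, beside 43.2% and 8.73%. The median difference over the list was 1.40 in WT, beside 1.27 over all exons. Tet1, a dioxygenase that oxidises methylcytosine, had inner zones of 3.64 in the first pair, 3.85 and 4.16 in the WT pairs, and 3.15 and 3.91 in the KO pairs, against outer zones of -3.15 to -0.26. Esrrb, an orphan nuclear receptor, had 3.55, 3.52, 3.94, 3.58 and 3.69, nearly equal in all pairs. Zfp42, the marker known as Rex1, had 1.19, 1.64, 1.15, 1.45 and 1.59 against outer zones of -2.66 to -0.36, and its maximum was window 4 in all pairs. Klf4 peaked at window 10 or 11 of 24, with winscores of 3.18 in the first pair, 4.57 and 4.74 in the WT pairs, and 4.87 and 4.81 in the KO pairs. Nr5a2, which can drive Pou5f1 transcription, had inner zones of 3.85, 3.30, 3.80, 1.83 and 3.59.

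Other members of this list had their maximum further in. In Tet2 it was window 12 or 13, with winscores of 5.10 in the first pair, 6.39 and 6.41 in the WT pairs, and 7.26 and 6.78 in the KO pairs. Sall4, a zinc finger transcription factor, peaked at window 15 in the WT and KO pairs and 17 in the first, with 4.02, 6.40, 6.30, 6.03 and 5.67. Lifr, the receptor of the cytokine that keeps these cells undifferentiated, peaked at windows 12 to 14 of 139. Its co-receptor Il6st peaked at window 31 of 64 in the WT and KO pairs. Lin28a, an RNA-binding protein that blocks let-7 maturation, was 1 of the 2 called higher outside in WT, with outer zones of 1.73 and 2.28 against inner zones of 0.78 and 0.57, and was not called in KO, with no call for the difference between genotypes (limma adjusted p = 0.751). The other was Nr0b1, whose long exon is the first exon by strand; its highest window was at 24, the outermost, in the WT and KO pairs. Mybl2, a cell-cycle transcription factor, had no window at 2 in either WT library (1.43 and 1.36).

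Of the regulators that mark primed or formative cells, 5 of 9 expressed genes had such exons (57.0% of all genes). Of the 5, 3 were called higher inside in each genotype, beside 49.1% of all exons in WT and 43.2% in KO. Both de novo DNA methyltransferases were among them. Dnmt3a had inner zones of 2.45 in the first pair, 4.13 and 5.01 in the WT pairs, and 3.90 and 4.40 in the KO pairs. Dnmt3b had 0.75, 1.57, 1.71, 2.09 and 1.41. KO 2 of Dnmt3a lay within the WT range and KO 1 below it, and in Dnmt3b the KO values lay on both sides of it.

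The m6A machinery itself was represented by 21 of 27 expressed genes (57.0% of all genes). In WT 12 of the 21 were called higher inside and 1 outside, beside 49.1% and 7.41% of all exons, and in KO 11 and 1, beside 43.2% and 8.73%. The median difference was 2.01 in WT and 1.40 in KO, beside 1.27 and 1.01 over all exons. Among the writers, Wtap had inner zones of 2.23 in the first pair, 2.48 and 2.99 in the WT pairs, and 1.56 and 1.77 in the KO pairs. Its KO values were below all others, and the difference of zones did not pass between genotypes (limma adjusted p = 0.953). Mettl16, which methylates other RNAs, had 1.89, 2.48, 3.43, 3.94 and 2.44. Mettl14, the partner of Mettl3, was weak, with 0.36, 0.96, 0.89, 0.86 and 0.48, and was not called. Cbll1, known as Hakai, peaked far in, at windows 19 to 23 of 70, with winscores of 4.77 to 8.08.

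Among the readers, Ythdf2, which recruits deadenylases, had inner zones of 1.77 in the first pair, 3.80 and 3.84 in the WT pairs, and 3.46 and 2.71 in the KO pairs. Ythdf3 had 2.85, 3.31, 3.81, 3.22 and 3.39. Ythdf1, by contrast, had inner zones from -2.75 to -0.65 and no window at 2 in any pair. The nuclear reader Ythdc1 had 0.68, 3.03, 3.22, 3.18 and 1.51, and the RNA-binding protein Igf2bp3 1.36, 2.88, 4.64, 3.28 and 2.87. Hnrnpa2b1 was the member called higher outside, with outer zones of 0.88 in the first pair, 0.95 and 1.80 in the WT pairs, and 1.20 and 1.23 in the KO pairs. Of the demethylases, Alkbh5 had inner zones of 1.52, 1.66, 2.33, 3.50 and 1.01, and Fto of 0.80, 0.85, -0.01, 1.54 and 0.58.

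Chromatin regulators, including Polycomb, had 24 of 33 expressed genes among the exons (57.0% of all genes). In WT 13 of the 24 were called higher inside and 3 outside, beside 49.1% and 7.41% of all exons, and in KO 16 and 3, beside 43.2% and 8.73%. Besides Suz12, the Polycomb subunits Pcgf6, Kdm2b and Pcgf3 peaked near the junction. Pcgf6 had its maximum at window 7 in all pairs, with 2.88 in the first pair, 6.64 and 6.44 in the WT pairs, and 6.83 and 6.33 in the KO pairs. Kdm2b had inner zones of 2.58, 3.002, 3.74, 4.49 and 4.16. Ep300, a histone acetyltransferase, was unlike these: its maximum was window 43 of 66 in all 5 pairs, with winscores of 6.67, 7.06, 6.10, 5.39 and 6.85, and 21 to 37 of its windows reached 2. Chd7, a chromatin remodeller, was called higher outside in both genotypes, with outer zones of 5.19, 4.48, 4.95, 5.999 and 4.93 against inner zones of 1.60 to 2.998.

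Receptors and mediators of TGF-beta, BMP and Wnt signalling had the longest of these exons (median 73 windows), and 21 of 30 genes had one (57.0% of all genes). In WT 13 of the 21 were called higher inside and 0 outside by limma, beside 49.1% and 7.41% of all exons, and in KO 11 and 1, beside 43.2% and 8.73%. The median difference over the list was 2.34 in WT and 1.29 in KO, beside 1.27 and 1.01 over all exons. The BMP receptor Bmpr1a had inner zones of 3.88 in the first pair, 5.26 and 6.19 in the WT pairs, and 5.78 and 4.69 in the KO pairs. The activin receptor Acvr2a had 5.55, 5.60, 5.88, 5.44 and 6.60. The Wnt co-receptor Lrp6 had 2.74 in the first pair, 3.82 and 4.79 in WT, and lower values of 2.93 and 2.98 in KO, with a difference of zones that did not pass between genotypes (limma adjusted p = 0.661).

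Of 77 expressed genes of cytosolic ribosomal proteins 7 had a long outer exon, beside 57.0% of all genes. The longer outer exon of the 70 with at least 2 exons had a median of 5 windows. Ribosomal protein genes have processed copies that can share reads, so their values are uncertain. Rps3 had WT inner zones of 1.54 and 2.25, and Rps15a, at 97 windows, of -0.44 and -0.47. Of the glycolysis genes 9 of 19 had a long outer exon, beside 57.0% of all genes. In WT 2 of the 9 were called higher inside and 1 outside, beside 49.1% and 7.41% of all exons. In KO 3 and 2 were called, beside 43.2% and 8.73%. The median difference over the list was 0.51 in WT and 0.11 in KO, beside 1.27 and 1.01 over all exons. The glucose transporter Slc2a3 had inner zones of 2.12 in the first pair, 3.87 and 4.43 in the WT pairs, and 3.26 and 3.80 in the KO pairs. In Slc2a1, another glucose transporter, the outer zone was higher, at 2.81, 4.43, 3.86, 2.87 and 2.41.

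Zinc finger genes of the Zfp series differed in position. This list was chosen after its values were seen and gets no test. Of 268 expressed genes 248 had a long outer exon, beside 57.0% of all expressed genes with at least 2 exons. These exons had a median of 51 windows. The highest window lay at a median of window 18 in the first pair, 19 and 20 in the WT pairs, and 21 and 19 in the KO pairs, against 9, 9, 10, 11 and 10 in the other 5729 exons. It lay within the first 10 windows in 34.4% of the Zfp exons in the first pair, 37.2% and 32.1% in the WT pairs, and 26.9% and 35.1% in the KO pairs, against 59.1%, 56.1%, 53.8%, 47.7% and 51.3% of the others. As a share of exon length the median position was 36.0% and 38.1% in WT, against 24.1% and 25.6%. The outer zone had medians of -0.03 and -0.08 in WT and 0.29 and 0.02 in KO, against 0.24, 0.29, 0.42 and 0.30 in the others. Of the 248, 107 were called higher inside and 27 outside in WT, beside 49.1% and 7.41% of all exons. In KO 108 and 27 were called, beside 43.2% and 8.73%. These genes had a median of 5 exons, against 9 in the others, and a median RPKM of 3.44 against 5.75. In Zfp91 the highest window was number 13 of 73 in all 5 pairs, with winscores of 8.45, 8.69, 9.10, 8.20 and 7.76. In Zfp740 it was window 8 of 61 in all 5. Many Zfp genes are close copies of each other, and reads that fit several are uncertain.

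Enriched windows were less frequent in long outer exons as a whole than in long internal exons. The winscore reached 2 in 10.7% of all their windows in the first pair, 17.8% and 23.4% in the WT pairs, and 24.9% and 22.4% in the KO pairs. In 891 internal exons of at least 20 windows the shares were 17.6%, 26.5%, 33.3%, 34.3% and 33.1%. The long outer exons were lower in 5 of 5 pairs, by 9.13 percentage points ± 1.45 (SD, n = 5). The two-sided exact sign-flip permutation p was 0.0625, the smallest that 5 pairs allow. The 5 pairs mix WT, KO and a pair of unstated genotype, so they are not replicates of a single condition. Their SD also holds differences of genotype and depth, here and in the next paragraph. Within the long outer exons the zones differed: 3.85%, 10.6%, 16.1%, 19.5% and 15.8% of the windows of the outer zone reached 2, against 23.9%, 36.9%, 43.7%, 39.5% and 38.7% in the inner zone.

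The inner zone alone was above the long internal exons in 5 of 5 pairs, by 7.58 percentage points ± 2.58 (SD, n = 5; exact sign-flip permutation p = 0.0625, the smallest possible). This comparison was added after the data were seen. It depends on the gene median: with the log2 ratio of IP to input, centred on each library's median over expressed genes in its place, the difference was 0.73 points ± 2.00 and 1 of the 5 pairs, KO 2, was lower (exact p = 0.438). On that scale long outer exons as a whole were still lower than long internal exons in 5 of 5 pairs. In the long internal exons the 8 windows at either edge were pooled, so no slope from edge to edge was computed. Of these edge windows 19.98%, 30.1%, 36.8%, 36.8% and 35.3% reached 2. Of the windows between them 16.1%, 24.1%, 30.8%, 32.6% and 31.6% did. Short internal exons had the fewest enriched windows, from 2.31% in the first pair to 14.4% in KO 1.

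**Figure D5:**
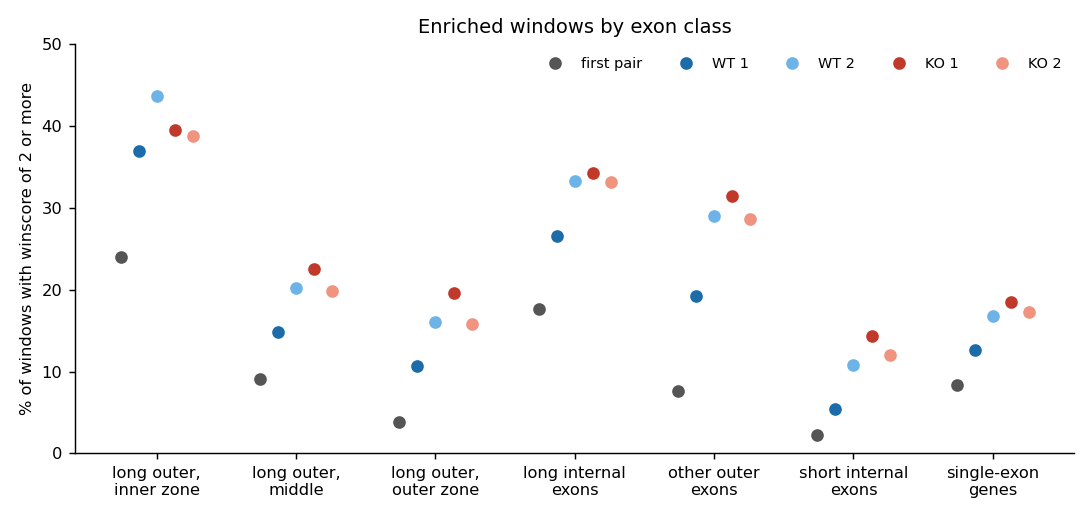
Percentage of windows whose winscore reached 2, by zone for the 3 zones of the long outer exons and in 4 other exon classes; each point is 1 pair of IP and input. The inner zone is highest in each pair (23.9% to 43.7%) and the outer zone lies below the long internal exons (17.6% to 34.3%) in each pair.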

How the data were processed

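Per the labels' protocols, fragments carrying m6A were pulled down with an antibody, and dUTP libraries, which mark the strand, were prepared. Per the submitters' processing notes, TopHat 1.1.3 and the mouse build mm9 were used; the sources used here do not state read filters, gene models or the strand handling of the coverage, so overlapping and antisense genes are uncertain. In 68 of the exons (1.14%) a window held the same values as a window of another gene. The authors deposited, per the file headers, window coverage as a signal, its median over the gene, a log2 winscore per pair, and an RPKM table, of which both WT input columns were used to choose genes. The authors' scaling of the coverage signal is not stated. The log2 winscore was recomputed from the deposited columns with a pseudocount of 1 and equalled the deposited value in all 1510223 windows (tolerance 1e-12). The low coverage values of each library were whole multiples of a step (tolerance 0.001), from which relative depth was taken; read numbers were not derived.

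The members and gene lists were chosen with earlier results of these data known. Exons were compared with limma 3.58.1 in R 4.3.3 (lmFit, eBayes with trend, Benjamini-Hochberg adjustment over all exons fitted, threshold 0.05), with WT and KO libraries in the fit and no covariate. The slope was fitted in 6214 outer exons and the mean winscore in 48517 exons of at least 4 windows. The fit was run on simulated data, with spreads shuffled among exons and added differences far above the observed median between KO and WT. That run does not show how often small differences would be found. Exact permutation tests used scipy 1.17.1. Genes were named by a rule: the 10 highest inner and 6 highest outer WT zones at an RPKM of at least 10, the 5 smallest p in each direction where fewer than 5 passed, the 3 longest exons and 3 on each side of the length limit, up to 6 genes per list by their highest WT window, and any pluripotency or m6A gene; the Zfp genes were chosen after their values were seen. One gene that the rule names is not reported here. Same-numbered WT and KO libraries did not deviate together (r = -0.0016 over 5977 exons), so the numbers were not taken as pairs. Alternatives covered pseudocounts, zones, filters, exon sides, a block for replicate number and left-out libraries.

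The files give no coordinates and no sequences, and no genome was used, so exons are named by gene and number. Analyses used Python 3.11.15, numpy 2.4.6, pandas 2.3.3 and matplotlib 3.10.9.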

Additional observations from a re-analysis of the deposited data

How the results depend on the processing

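Inner zone calls were 1749 of 2983 exons (58.6%) in WT and 1520 (51.0%) in KO at 40 or more windows, 1782 of 3244 (54.9%) and 1588 (48.95%) at an RPKM minimum of 5, 1393 and 1256 of 2942 in exons numbered 1, and 1538 and 1331 of 3035 in highest-numbered exons. A zone of 4 windows gave 1780 and 1487 of 5977, and no RPKM minimum gave 1307 and 935 of 11523 exons. Without 1 library, the calls were 1024 to 3375 in WT and 2051 to 2532 in KO; they fell in WT without WT replicate 1 (1627) or WT replicate 2 (1024). With the other settings for WT and KO (pseudocounts 0.5 and 5, zones scaled to exon length, mean coverages, an input minimum, last exons by strand, no trend) they stayed within 1.5 times. A replicate block gave 3064 and 2691 inner calls, and 465 and 552 outer calls in place of 443 and 522. With the block 0 exons differed between KO and WT in slope or in mean winscore. The libraries of a block share only a number. The slope differed between KO and WT in 0 exons under the other alternatives, and in 0 to 38 when 1 library was left out, the 38 being without KO replicate 2. The median of KO minus WT was below 0 in each of them, from -0.33 to -0.01. The mean winscore gave 0 calls under every alternative run. The highest window lay in the first 10 windows in 54.1% (WT mean) and 48.7% (KO mean) of exons; this was 56.1% in WT at a winscore threshold of 3, 49.1% and 42.8% at 40 or more windows, and 58.9% and 52.8% at an RPKM minimum of 5, and without 1 library 52.9% to 55.3% in WT and 46.8% to 50.6% in KO. The IP libraries of WT 2, KO 1 and KO 2 were thin: more than 35% of the windows had no IP signal there, and the part of this in the number of calls was not tested. Choices on last exons by strand and on the inner zone against internal exons were made after seeing the data.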
